A study of Mus musculus with 68 samples.

Results

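The 48 chemokine and chemokine receptor genes of mouse lung were followed here across alveolar septa and vessels, cigarette smoke and a lowered or raised dose of Fgf10. Members were all genes whose symbol on the array begins with Ccl, Cxcl, Ccr or Cxcr and a digit, or with Cx3c, Xcl or Xcr. The neutrophil-attracting genes Cxcl1, Cxcl2, Cxcl3, Cxcl5 and Cxcl15 and their receptor gene Cxcr2, 6 genes in all, were left out by that rule. This gave 48 of the 24583 named genes, of which 31 encode ligands and 17 encode receptors. RNA from laser-microdissected alveolar septa and vessels was amplified and hybridised to 1-colour Agilent arrays, 34 arrays for each compartment. At 3 months the groups were Fgf10 knock-down in cigarette smoke (FGF10_CS, 5 arrays per compartment), wild type in cigarette smoke (WT_CS, 5), Fgf10 knock-down in room air (FGF10_RA, 4) and wild type in room air (WT_RA, 5). The treatment text names Fgf10+/- animals, so the knock-down groups are read here as that genotype. At 8 months the groups were Fgf10 overexpression after smoke (Overexp_CS8M, 5), smoke controls (Control_CS8M, 5) and room air controls (Control_RA8M, 5), and this arm had 1 more week with or without doxycycline after the exposure. The labels conflict on the duration, since the growth text gives 3 months of smoke for every sample while the titles and the treatment text give 8 months for these groups. The titles were followed, so every value given for 8 months, and every comparison of 8 with 3 months, rests on them. The labels name neither the promoter behind the overexpression nor which controls received doxycycline. The series describes its replicates as biological but does not tie arrays to animals, so septa and vessel arrays may share animals.

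Chemokines are small secreted proteins that form gradients on matrix and endothelium, and leukocytes read these gradients through G protein-coupled chemokine receptors. Inflammatory chemokines such as Ccl2 and Ccl3 are induced in injured tissue and draw monocytes and other effector cells, while homeostatic ones such as Ccl19, Ccl21a, Cxcl12 and Cxcl13 place lymphocytes and dendritic cells in lymphoid tissue and in the lung's connective tissue sheaths. In the lung, macrophages, dendritic cells, epithelium, fibroblasts and endothelium all make chemokines, and many of the genes sit in chromosomal clusters that arose by duplication.

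The results below turn most on Ccl8 and Ccl17, the ligand genes with the largest differences between compartments, and on Ccl6, the 1 member that passed the test for a change with smoke with all arrays. Their promoters are shown for that reason, as the 250 bases before the gene start in RefSeq's GRCm38.p6 table, in lower case, with any match to a searched motif in capitals. The Ccl8 promoter lies at chr11:82114935-82115184 on the plus strand and holds 1 TATAAA.
Ccl8: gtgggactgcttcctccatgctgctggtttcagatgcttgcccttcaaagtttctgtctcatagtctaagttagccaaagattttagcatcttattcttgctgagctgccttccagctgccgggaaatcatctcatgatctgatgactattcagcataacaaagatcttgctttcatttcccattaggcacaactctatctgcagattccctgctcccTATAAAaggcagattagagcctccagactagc
The Ccl17 promoter lies at chr8:94810203-94810452 on the plus strand and holds 1 match to the STAT motif TTCNNNGAA.
Ccl17: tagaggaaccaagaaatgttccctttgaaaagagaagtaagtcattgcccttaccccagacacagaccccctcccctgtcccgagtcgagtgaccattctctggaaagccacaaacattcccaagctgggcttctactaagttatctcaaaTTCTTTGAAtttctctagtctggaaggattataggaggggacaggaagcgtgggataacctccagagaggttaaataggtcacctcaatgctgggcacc
The Ccl6 promoter lies at chr11:83593088-83593337 on the minus strand and holds none of the 4 motifs searched.
Ccl6: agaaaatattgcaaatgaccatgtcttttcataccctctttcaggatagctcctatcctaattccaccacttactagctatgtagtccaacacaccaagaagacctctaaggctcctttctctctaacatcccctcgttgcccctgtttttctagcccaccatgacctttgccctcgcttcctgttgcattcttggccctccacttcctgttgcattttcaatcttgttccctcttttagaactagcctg
Both strands were searched, over 39 promoters of 35 members and over all 32851 promoters of the table. TATAAA lay in 10 of the 39 member promoters and in 12.4% of all promoters. TTCNNNGAA lay in 4 of the 39 and in 7.02% of all, and the interferon-stimulated response element (ISRE) in 3 of the 39 and in 2.98% of all. The NF-kB consensus lay in 5 of the 39 and in 3.9% of all promoters. No 2 motifs overlap in the 3 sequences shown, since each holds at most 1 match.

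Every value below is a log2 intensity as deposited, or a difference of log2 intensities, and the level of each array's percentile 40, 5.32, serves as the dim level. A gene's value is that of its brightest probe, so levels of different genes are not set against each other. Of the arrays, 3 correlated poorly with the other arrays of their compartment, namely FGF10_CS septa replicate 5 with a median correlation of -0.0176, FGF10_CS septa replicate 1 with 0.243 and FGF10_CS vessel replicate 5 with 0.456. All other arrays had at least 0.691, and results that rest on the 3 low-correlation arrays are given with and without them. The WT_RA vessel arrays, replicates 1 to 5, had 0.805, 0.691, 0.766, 0.745 and 0.726, low beside most other vessel arrays. They are the reference for wild-type smoke and for room air knock-down in vessels, and the part of this in those differences was not tested. The Fgf10 probe did not follow the labels: in septa it averaged 8.36 ± 0.60 (SD, n = 4) in FGF10_RA and 7.71 ± 0.58 (SD, n = 5) in WT_RA, and it averaged 8.21 ± 0.91 in Overexp_CS8M against 9.01 ± 1.11 in Control_CS8M (SD, n = 5 each). Directions for knock-down and overexpression therefore rest on the labels. The compartments matched theirs by 4 of 4 smooth muscle genes lower in septa, with array means of 6.60 to 11.8 in septa and 13.4 to 15.4 in vessels, and by 3 of 4 alveolar type 1 genes higher in septa. The smooth muscle mean of 6.60 came from the FGF10_CS group, and the lowest in the other septa groups was 9.996. Of 4 alveolar type 2 genes only Lamp3 was called with all arrays, as higher in septa (1.38). Abca3 (0.50) and Sftpb (-0.53) passed only without the low-correlation arrays. The median array means of that list lay close together, at 12.84 in septa and 12.37 in vessels.

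Of the 48 members, 37 lay above the dim level on at least 34 of the 68 arrays and 11 on fewer. Above it on every array were 7 members, namely Cxcl11, Cxcl12, Ccl6, Cxcr4, Ccl21a, Cxcl16 and Cx3cl1. Both Cxcl11 probes carry an accession without a match in the RefSeq table, so their signal may not report a Cxcl11 transcript. Ccr4, the receptor of Ccl17 and Ccl22, and Ccr1l1, a Ccr1-like receptor gene, had no group mean above 5.32, with highest group means of 5.19 and 5.32. Ccl26, whose human counterpart is a ligand of the eosinophil receptor CCR3, lay above the dim level on 0 of 34 septa arrays and on 5 of 34 vessel arrays. By the filter on dim probes, 46 members were tested in septa and 48 in vessels and between compartments.

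The clearest pattern was that of place. Lower in septa than in vessels were 5 of 7 monocyte and eosinophil attracting ligands, 3 of 4 lymphoid homing ligands and 3 of 7 T cell and mucosal ligands, while 2 of 5 macrophage inflammatory ligands and 5 of 17 receptors were higher in septa. Between compartments 22 of the 48 members (45.8%) passed the test, in limma with a Benjamini-Hochberg adjusted p under 0.05 over 24150 genes, against 19.8% of all genes. Of the members, 8 (16.7%) were higher in septa, against 11% of all genes, and 14 (29.2%) were lower in septa, against 8.85% of all genes. Without the low-correlation arrays 12 members were higher and 20 lower, against 17.9% higher and 14.5% lower of all genes (32.4% in both directions). The members that passed only then were Ccl5, Ccl27a, Cxcl12 and Cxcr1, higher in septa, and Ccl24, Ccl26, Cxcl10, Cxcl11, Ccr8 and Xcr1, lower in septa. Among the 22 members the septa medians of Ccl8, Ccl7, Cxcl13, Ccl20, Ccl22 and Ccr10 and the vessel medians of Cxcr5 and Ccr1 lay below the dim level, where the size of a difference is uncertain. In bulk samples fewer cells of a type and less RNA per cell cannot be told apart, here and in every result that follows.

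**Figure D1:**
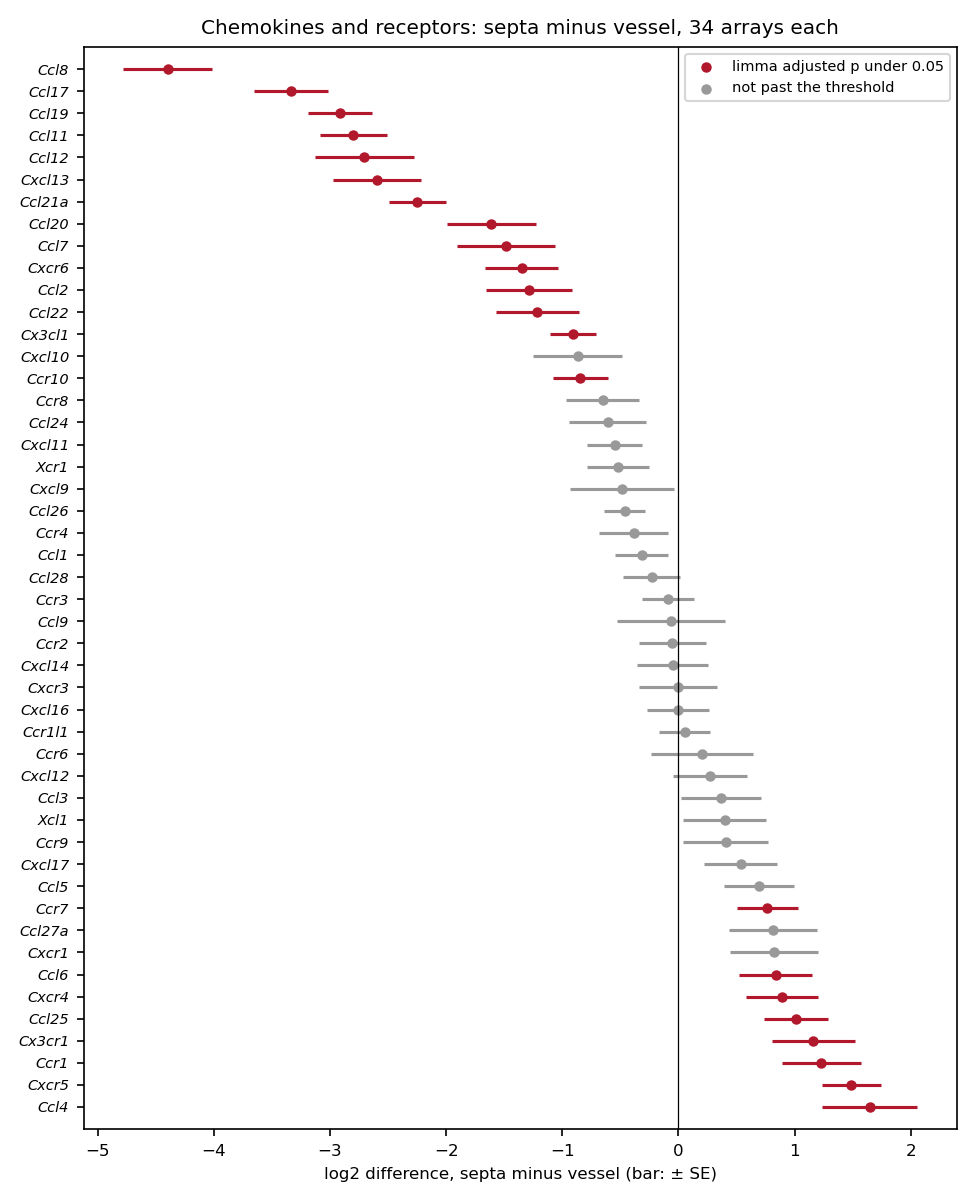
Difference of log2 intensity, septa minus vessel, for each of the 48 members (points, mean of 7 septa groups minus mean of 7 vessel groups, with standard errors as bars), where red points have an adjusted p under 0.05. Ccl8 lies farthest to the vessel side at -4.40 and Ccl4 farthest to the septa side at 1.65.

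Of the 7 monocyte and eosinophil attracting CC ligands all 7 had negative differences, and 5 passed the test. Ccl8, which in the mouse is a ligand of Ccr8, had a lowest, median and highest value of 3.99, 4.82 and 9.67 in septa, against 4.90, 10.13 and 12.68 in vessels. It lay above the dim level on 9 of 34 septa arrays and 33 of 34 vessel arrays, and the difference was -4.40 ± 0.38 (SE, adjusted p 3.54e-14). The ranges overlapped, but the septa median lay below the lowest vessel array. Ccl11, the eotaxin that draws eosinophils through Ccr3, had 4.20, 5.53 and 10.67 in septa and 6.45, 8.82 and 10.87 in vessels, a difference of -2.80 ± 0.29 (adjusted p 2.89e-11). Ccl12, a mouse ligand of Ccr2, had 3.73, 6.08 and 10.21 in septa and 4.03, 9.24 and 11.88 in vessels, a difference of -2.70 ± 0.42 (adjusted p 1.8e-06). The highest septa values were 8.12 for Ccl12 and 10.40 for Ccl11 without the low-correlation arrays. Ccl7 differed by -1.48 ± 0.42 (adjusted p 0.00727) and Ccl2, the main monocyte attractant, by -1.29 ± 0.37 (adjusted p 0.00859). Their ranges overlapped widely, with septa medians of 5.10 for Ccl7 and 7.54 for Ccl2 against vessel medians of 7.11 and 9.55. Ccl24 and Ccl26 had differences of -0.61 (adjusted p 0.200) and -0.46 (adjusted p 0.0512), and both passed without the low-correlation arrays.

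Among the 4 lymphoid homing ligands 3 were lower in septa. Ccl19, a ligand of Ccr7 made by stromal cells and mature dendritic cells, had 4.48, 6.34 and 9.29 in septa, against 6.53, 9.09 and 11.02 in vessels (-2.91 ± 0.28, adjusted p 1.36e-12). Ccl21a, the Ccr7 ligand of lymphatic endothelium and lymphoid stroma, had 8.26, 10.23 and 13.79 in septa, against 9.54, 12.59 and 14.24 in vessels (-2.25 ± 0.25, adjusted p 1.56e-10). The highest septa value of Ccl21a was 11.82 without the low-correlation arrays, and the lowest vessel value of Ccl19 was then 7.66. Ccl21a has near-identical copies in the mouse genome that its probe may not tell apart. Cxcl13, the B cell attractant, had 3.87, 5.08 and 9.70 in septa, against 3.86, 8.18 and 11.15 in vessels (-2.59 ± 0.38, adjusted p 3.08e-07). For Cxcl12, which holds leukocytes and progenitors through Cxcr4, the brightest probe gave 0.27 and a dimmer probe -2.67, so the probes differed in sign. Without the low-correlation arrays the brightest probe gave 0.51 (adjusted p 0.0112).

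Of the 7 T cell and mucosal ligands 3 were lower in septa and 1 higher. Ccl17, a Ccr4 ligand made mainly by dendritic cells, had 4.71, 7.35 and 11.11 in septa, against 6.11, 10.66 and 12.79 in vessels (-3.34 ± 0.32, adjusted p 1.21e-12). Its lowest septa value was 5.20 without the low-correlation arrays. Ccl22, the other Ccr4 ligand, differed by -1.21 ± 0.36 (adjusted p 0.0102), with a septa median of 4.40. Ccl20, the ligand of Ccr6, differed by -1.61 ± 0.38 (adjusted p 0.00134). Ccl25, the ligand of Ccr9, went the other way, with 3.99, 10.46 and 12.69 in septa and 6.61, 9.55 and 11.49 in vessels (1.01 ± 0.28, adjusted p 0.00541). The lowest septa value of Ccl25 came from a low-correlation array, and without those arrays it was 8.86. The highest vessel value of Ccl25 was then 10.50. Cx3cl1, the membrane-bound ligand of Cx3cr1, was lower in septa by the test (-0.91 ± 0.20, adjusted p 0.000383). The interferon-inducible ligands Cxcl9, Cxcl10 and Cxcl11, which act through Cxcr3, had a median difference of -0.55 and none of the 3 passed with all arrays. Cxcl10 (-1.07, adjusted p 0.0298) and Cxcl11 (-0.40, adjusted p 0.0330) passed without the low-correlation arrays.

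The macrophage inflammatory ligands had positive differences in 4 of 5 and passed the test in 2. Ccl4, a chemokine released by activated macrophages and T cells, had 3.91, 9.42 and 11.73 in septa, against 4.91, 7.11 and 10.76 in vessels (1.65 ± 0.41, adjusted p 0.00214). Ccl6, a macrophage and myeloid cell product of the mouse that acts through Ccr1, had 6.43, 13.87 and 15.56 in septa, against 8.82, 12.93 and 15.02 in vessels (0.84 ± 0.31, adjusted p 0.0482). The call for Ccl6 was fragile, as it was kept in 23 of 68 fits that left out 1 array and had an adjusted p of up to 0.0727 in the others. The adjusted p was 8.8e-05 without the low-correlation arrays, and the lowest septa value of Ccl6 was then 12.31.

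Of the 10 receptors mainly of lymphocytes 3 were higher and 2 lower in septa, and of the 7 mainly of myeloid cells 2 were higher and none was lower. Cxcr5, the receptor of Cxcl13 that marks B cells and follicular T cells, had 4.04, 6.59 and 9.30 in septa, against 3.92, 4.68 and 10.25 in vessels (1.49 ± 0.26, adjusted p 1.14e-05). Ccr1, a receptor of Ccl3, Ccl5, Ccl6 and Ccl9, was above the dim level on 25 of 34 septa arrays and 7 of 34 vessel arrays (1.23 ± 0.34, adjusted p 0.00591). Cx3cr1, carried by monocytes and some macrophages, had 5.73, 11.13 and 12.47 in septa, against 4.09, 10.04 and 12.24 in vessels (1.16 ± 0.36, adjusted p 0.0146). Its lowest values were 8.64 in septa and 4.58 in vessels without the low-correlation arrays. Cxcr4 and Ccr7 were higher in septa by 0.89 ± 0.31 (adjusted p 0.0314) and 0.77 ± 0.26 (adjusted p 0.027). With the mean of all probes the adjusted p was 0.302 for Cxcr4, 0.0788 for Ccr7 and 0.0695 for Cx3cr1. Cxcr6, a receptor of tissue-resident T cells and the partner of Cxcl16, and Ccr10, the receptor of Ccl27a and Ccl28, were lower in septa by -1.35 ± 0.31 (adjusted p 0.000883) and -0.84 ± 0.24 (adjusted p 0.00691).

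Some ligand and receptor genes lay on opposite sides, in pairs picked out after their values were seen. Cxcr5 was higher in septa while its ligand gene Cxcl13 was lower there, Ccr7 was higher while Ccl19 and Ccl21a were lower, and Cx3cr1 was higher while Cx3cl1 was lower. Inside the 7 conditions Ccr7 was higher in septa in only 4 and lower in 3 (-0.23 to 2.26), and it passed only in WT_RA. Cxcr5 was higher in 6 of the 7 and Cx3cr1 in all 7. Ccr1 and its ligand gene Ccl6 were both higher in septa. Cxcr6 was lower in septa, while Cxcl16 averaged 10.87 ± 0.96 in septa and 10.86 ± 1.52 in vessels (SD, n = 34 each).

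The members were also read in chromosomal order. The table of RefSeq placed 47 members, and 26 of them fell into 7 runs of neighbours with no other protein-coding gene between. In the run Ccl2, Ccl7, Ccl11, Ccl12, Ccl8 and Ccl1 on chromosome 11, the 5 genes before Ccl1 were lower in septa by the test, whereas Ccl1 differed by -0.31 ± 0.23 (adjusted p 0.370). In the run Ccl5, Ccl9, Ccl6, Ccl3 and Ccl4, also on chromosome 11, Ccl6 and Ccl4 were higher in septa and none was lower, and Ccl5 also passed without the low-correlation arrays (0.87, adjusted p 0.000154). Ccl19 and Ccl21a on chromosome 4 were both lower, and so were Ccl22, Cx3cl1 and Ccl17 on chromosome 8. The receptor run on chromosome 9 was mixed, with Cxcr6 lower and Ccr1 higher in septa while Xcr1, Ccr1l1, Ccr3 and Ccr2 did not pass the test with all arrays. Xcr1 passed as lower without the low-correlation arrays (-0.44, adjusted p 0.0461). In the other run of that chromosome Cx3cr1 was higher in septa and its neighbour Ccr8 went the opposite way, at -0.65 (adjusted p 0.142), or -0.88 without the low-correlation arrays (adjusted p 0.00249). Ccl26 and Ccl24 on chromosome 5 had negative differences that passed only without those arrays.

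**Figure D2:**
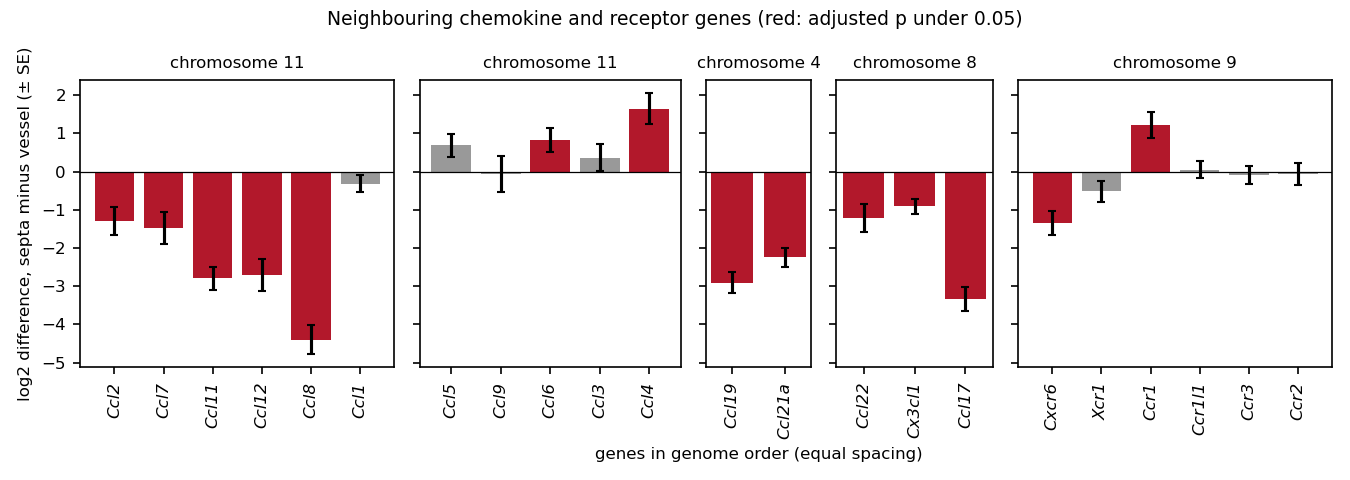
Difference of log2 intensity, septa minus vessel, with standard errors, for 5 runs of neighbouring members in gene order, where red bars have an adjusted p under 0.05. Bars in the run from Ccl2 to Ccl8 all point to the vessel side, between -1.29 and -4.40, and Ccl6 and Ccl4 in the second run of chromosome 11 point to the septa side.

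The differences of place were read again inside each of the 7 conditions. Of the 22 members, 11 had the same sign in all 7, namely Ccl8, Ccl17, Ccl19, Ccl11, Ccl12, Ccl21a, Ccl20 and Ccl7 on the vessel side and Ccl4, Ccr1 and Cx3cr1 on the septa side. Ccl19 passed the test in 6 of the 7 conditions, with differences of -3.31 to -2.58. Ccl8 passed in 5, with -5.28 to -3.07, Ccl17 in 4, with -4.64 to -2.26, and Ccl11 in 3. The share of all genes called was 8.76% in FGF10_CS, 2.72% in WT_CS, 0.203% in FGF10_RA, 4.94% in WT_RA, 0.344% in Overexp_CS8M, 0.439% in Control_CS8M and 0.634% in Control_RA8M. In WT_RA 6 members passed, with Ccl11, Ccl17 and Ccl19 lower in septa and Ccl6, Ccr7 and Cxcr5 higher. Cxcl13, Cxcr6 and Ccl22 had the opposite sign there, at 0.55, 0.92 and 0.03. In a separate fit of the WT_RA arrays alone 2 members passed, and the share of all genes in that fit is not given here.

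Marker genes of several cell types moved with the compartments, and their part in these differences was not tested. By the same test 11% of all genes were higher and 8.85% lower in septa. The lowest septa mean of each list below came from the FGF10_CS group, which holds low-correlation arrays. In the other septa groups the lowest was 8.33 for fibroblast, 11.3 for neutrophil and 11.5 for capillary endothelium genes. The lowest vessel means of the fibroblast and capillary endothelium lists also came from FGF10_CS, and were 11.0 in the other vessel groups. Fibroblast genes were lower in septa by the test in 3 of 4, with array means of 4.78 to 10.9 in septa and 8.90 to 13.2 in vessels. Lymphatic endothelium genes were lower in 3 of 5, with 4.55 to 9.68 in septa and 6.12 to 10.9 in vessels. Dendritic cell genes were lower in 4 of 8 and higher in 2 of 8, with 5.75 to 8.11 in septa and 5.19 to 9.45 in vessels. Alveolar macrophage genes were higher in 5 of 10 and lower in 2 of 10, with 5.89 to 11.5 in septa and 6.53 to 10.2 in vessels. Interstitial macrophage and monocyte genes were lower in 3 of 8, C1qa (-1.84), C1qb (-1.69) and C1qc (-2.49), and higher in 1, Fcgr4 (1.28), with 8.0 to 11.3 in septa and 8.25 to 11.9 in vessels. Genes of NK and cytotoxic cells were higher in 4 of 6, led by Gzma (3.29) and Klrb1c (2.14), and lower in 1, Prf1 (-1.09), with 6.17 to 10.2 in septa and 5.61 to 8.60 in vessels. T cell genes were higher in 2 of 7, Cd8a (1.07) and Cd2 (0.94), with 6.45 to 9.86 in septa and 6.42 to 9.84 in vessels. Neutrophil genes were higher in 3 of 5, Retnlg (2.44), S100a9 (1.65) and S100a8 (1.33), with 6.89 to 14.03 in septa and 8.71 to 12.95 in vessels. Of 4 capillary endothelium genes Kdr was higher (2.59), with list means of 6.66 to 13.6 in septa and 7.36 to 12.6 in vessels. B cell genes, which matter for Cxcr5, were higher in septa in 2 of 7, with 5.86 to 9.57 in septa and 5.90 to 9.80 in vessels.

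**Figure D3:**
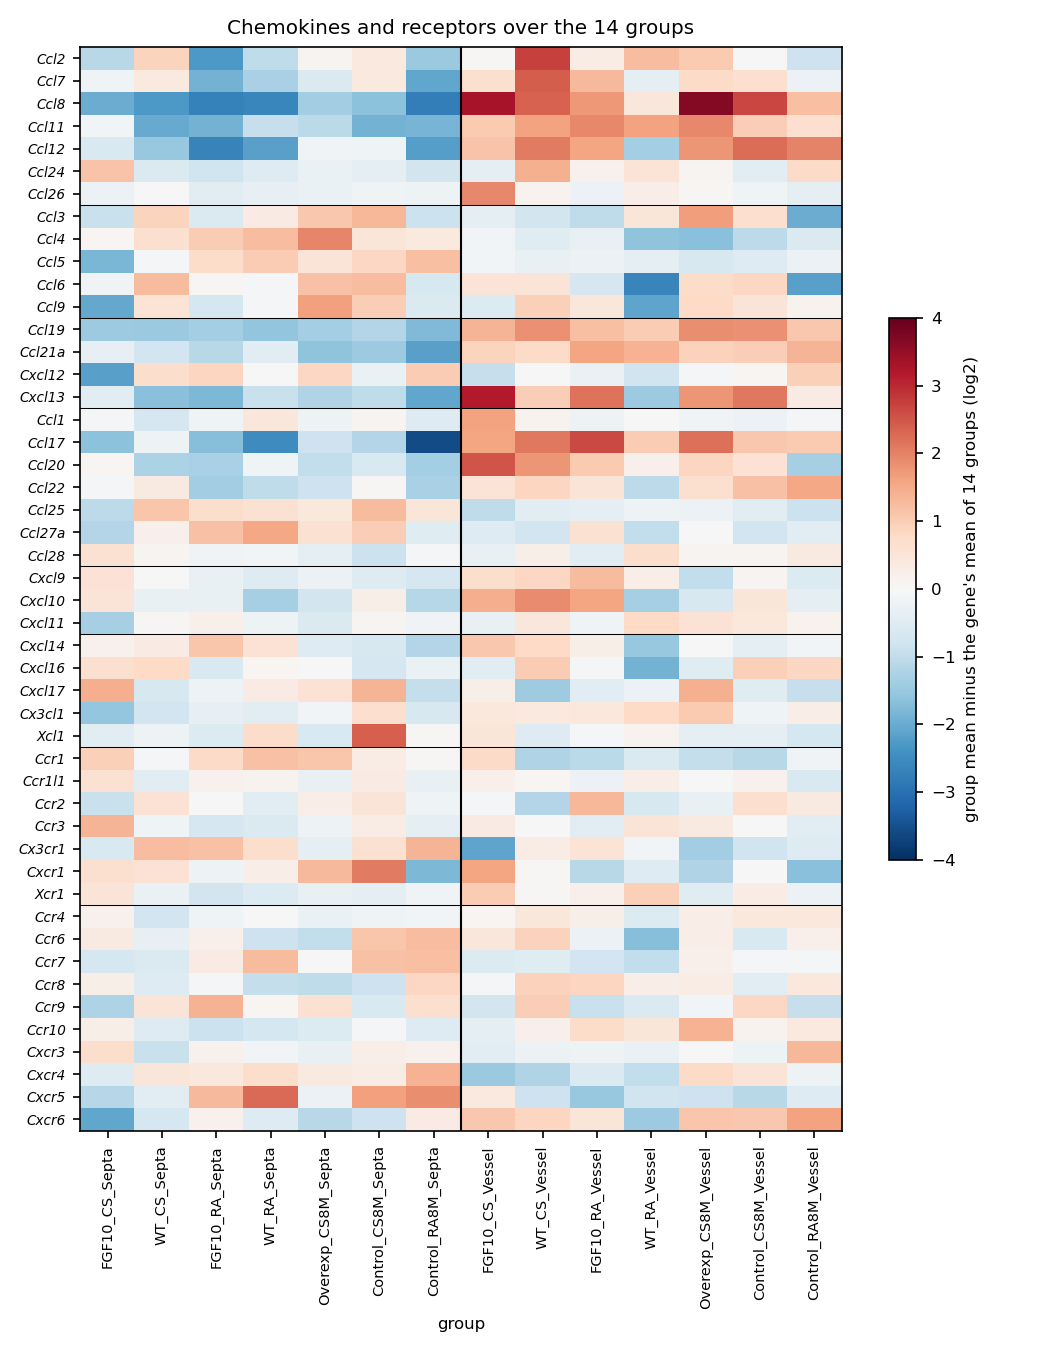
Heat map of each member's mean in each of the 14 groups minus its own mean over the 14 groups, in log2 units (red above, blue below), with septa groups left of vessel groups. All 7 septa columns are blue and all 7 vessel columns red for Ccl8, Ccl17, Ccl19 and Ccl11, and the largest deviation of any cell is 3.66.

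In wild type, 3 months of cigarette smoke gave 1 member that passed the test, Ccl6 in vessels. In vessels Ccl6 had 13.94, 15.02, 12.81, 12.68 and 14.35 in WT_CS, against 11.94, 8.82, 9.72, 10.84 and 11.76 in WT_RA. The 2 groups did not overlap, and the rise was 3.15 ± 0.66 (SE, limma adjusted p 0.0405, exact permutation p 0.00794, which is the smallest 5 against 5 arrays allow). Of all genes 0.142% passed in this comparison, or 0.6% without the low-correlation arrays, where the adjusted p of Ccl6 was 0.0161. The call was lost when any of 8 of the 10 arrays was left out, with an adjusted p of up to 0.136, and the difference then ran from 2.70 to 3.48. With those 10 arrays alone in the fit the adjusted p was 0.261, and the replicate number as a block gave 0.0649.

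**Figure D4:**
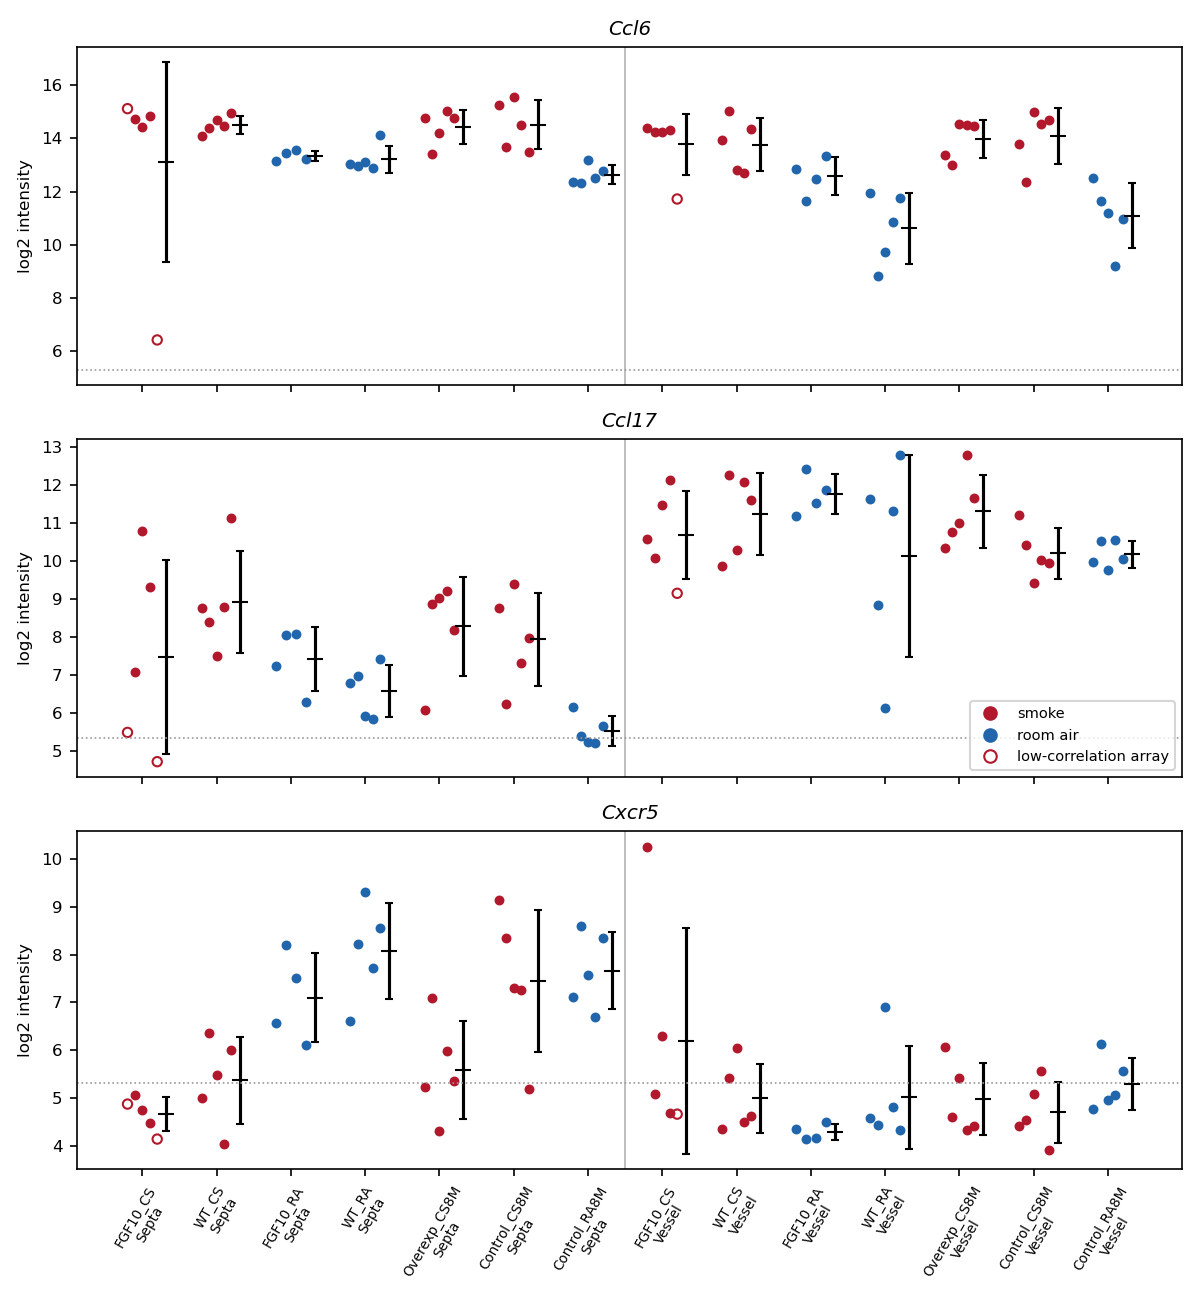
Log2 intensity of Ccl6, Ccl17 and Cxcr5 on every array (points, red for smoke, blue for room air, open circles for the 3 low-correlation arrays) in the 14 groups, with the group mean ± SD beside and the dim level as a dotted line. For Ccl6 in vessels the WT_CS arrays, from 12.68, lie above every WT_RA array, up to 11.94.

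Other members differed in wild-type smoke without passing the adjusted test. In vessels Cxcl16, the transmembrane ligand of Cxcr6, had 11.31, 12.32, 12.08, 12.36 and 11.35 in WT_CS, against 11.09, 9.19, 7.83, 6.69 and 10.04 in WT_RA. The groups did not overlap (2.92 ± 0.78, adjusted p 0.120, exact permutation p 0.00794), and leaving out WT_RA replicate 1 or 5 brought the adjusted p under the threshold, to as low as 0.0369. A dimmer probe of Cxcl16 gave 1.49. Its receptor gene Cxcr6 had 9.48, 9.72, 10.59, 11.11 and 10.16 in WT_CS, against 9.49, 11.18, 7.27, 5.35 and 6.29 in WT_RA. These groups overlapped (2.30 ± 0.69, adjusted p 0.162, exact permutation p 0.103), and a dimmer probe of Cxcr6 gave 0.04. In vessels 10 of 48 members had an unadjusted p under 0.05, against 12.2% of all genes, and all 10 had positive differences. The median difference of the members was 0.55, against 0.10 for all genes. By role it was 1.51 for the monocyte and eosinophil attracting ligands, with 6 of 7 positive, 1.11 for the macrophage inflammatory ligands (4 of 5), 0.82 for the lymphoid homing ligands (3 of 4) and 0.22 for the T cell and mucosal ligands (5 of 7). It was 0.58 for the interferon-inducible ligands (2 of 3) and for the lymphocyte receptors (7 of 10), -0.43 for the other ligands (2 of 5) and -0.51 for the myeloid receptors (2 of 7). Cell markers moved beside these values, and their part was not tested. The macrophage receptor gene Mrc1 rose by 3.43 (adjusted p 0.0405) and was the 1 of 10 alveolar macrophage genes that passed, with array means of that list of 7.23 to 9.83 in WT_CS vessels and 6.62 to 7.91 in WT_RA vessels. Interstitial macrophage and monocyte genes had array means of 9.93 to 11.4 in WT_CS vessels and 8.25 to 9.87 in WT_RA vessels, and 0 of 8 passed with all arrays. Of these, Adgre1 (4.46, adjusted p 0.0522) and C1qc (2.33, adjusted p 0.0625) passed without the low-correlation arrays, at adjusted p 0.0144 and 0.0358.

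In septa no member passed the limma test after 3 months of smoke in wild type, where 0.0046% of all genes passed, and 6 of 46 members had an unadjusted p under 0.05, against 3.52% of all genes. The 3 with the smallest p were Cxcr5, Ccr7 and Ccl17. Cxcr5 had 5.01, 6.36, 5.48, 4.04 and 6.01 in WT_CS, against 6.61, 8.22, 9.30, 7.72 and 8.56 in WT_RA. Every smoke array lay below every room air array (-2.70 ± 0.64, adjusted p 0.369, exact permutation p 0.00794). Ccr7, which guides dendritic cells and naive lymphocytes, had 8.71, 5.92, 7.55, 7.28 and 8.50 in WT_CS, against 7.86, 9.69, 10.88, 9.19 and 9.53 in WT_RA (-1.84 ± 0.63, adjusted p 1.0, exact permutation p 0.0317). Both Ccr7 probes gave similar differences, -1.84 and -1.81. Ccl17 had 8.75, 8.38, 7.50, 8.78 and 11.11 in WT_CS, against 6.77, 6.96, 5.91, 5.84 and 7.40 in WT_RA, with no overlap (2.33 ± 0.83, adjusted p 1.0, exact permutation p 0.00794). B cell genes had array means of 7.23 to 8.56 in WT_CS septa and 8.35 to 9.57 in WT_RA septa, with a median difference of -1.23 and 0 of 7 called. T cell genes had 7.77 to 8.56 in WT_CS septa and 8.34 to 9.52 in WT_RA septa, with a median difference of -1.08 and 0 of 7 called. The part of either in the Cxcr5 and Ccr7 values was not tested. Of the 10 alveolar macrophage genes none passed with all arrays, and Marco (3.64) and Plet1 (3.00) passed without the low-correlation arrays.

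Smoke over 8 months was read in the control animals. In septa no member passed with all arrays, where 0.023% of all genes passed, but 12 of 46 members had an unadjusted p under 0.05, against 7.25% of all genes, and 11 of the 12 had positive differences. Without the low-correlation arrays, which belong to other groups but enter the shared spread, 2 members passed, Ccl6 and Cxcr1, against 0.644% of all genes, and 16 had an unadjusted p under 0.05, against 17.6% of all genes. Ccl6 in septa had 15.25, 13.67, 15.56, 14.51 and 13.50 in Control_CS8M, against 12.34, 12.31, 13.18, 12.52 and 12.77 in Control_RA8M. The groups did not overlap and the difference was 1.87, with an SE of 0.91 and an adjusted p of 0.672 with all arrays, or an SE of 0.36 and an adjusted p of 0.0141 without the 3 arrays (exact permutation p 0.00794). Cxcr1, a receptor of neutrophils, had 11.17, 6.93, 10.54, 3.90 and 8.17 in Control_CS8M, against 4.22, 4.04, 4.02, 5.06 and 4.04 in Control_RA8M. Of the 5 smoke arrays, 4 lay above all room air arrays and replicate 4 lay below them (3.87 ± 0.96, adjusted p 0.191, or 0.0487 without the low-correlation arrays, exact permutation p 0.0476). Leaving out that replicate, whose median correlation was 0.725, gave 4.93 and an adjusted p of 0.0164 with all other arrays kept. All 5 room air arrays of Cxcr1 lay below the dim level.

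In the same septa Ccl7 had 5.99, 6.93, 7.47, 8.83 and 5.10 in Control_CS8M, against 4.63, 4.94, 4.00, 4.23 and 4.26 in Control_RA8M (2.45 ± 0.81, adjusted p 0.479, exact permutation p 0.00794). Ccl17 had 8.76, 6.24, 9.38, 7.30 and 7.96 in Control_CS8M, against 6.14, 5.38, 5.22, 5.20 and 5.66 in Control_RA8M (2.41 ± 0.83, adjusted p 0.489, exact permutation p 0.00794). Neither pair of groups overlapped, and neither gene passed the adjusted test. By role, the median difference was 1.54 for macrophage inflammatory ligands, 1.51 for monocyte and eosinophil attracting ligands, 0.80 for T cell and mucosal ligands and -0.17 for lymphocyte receptors, of which 2 of 10 were positive. Over all members the median was 0.60, against 0.05 for all genes. Alveolar macrophage genes had array means of 9.31 to 11.5 in Control_CS8M septa and 7.61 to 9.68 in Control_RA8M septa, with 10 of 10 positive. None of the 10 passed with all arrays, and Chil3 (3.45), Marco (3.40) and Mrc1 (2.98) passed without the low-correlation arrays. Neutrophil genes had array means of 11.996 to 13.382 in Control_CS8M septa and 11.327 to 12.770 in Control_RA8M septa. The part of either cell type in the chemokine values was not tested.

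In vessels at 8 months 0 of 48 members and 0% of all genes passed in limma, and 2 members had an unadjusted p under 0.05, against 3.54% of all genes. Ccl6 had 13.80, 12.36, 14.97, 14.55 and 14.69 in Control_CS8M, against 12.50, 11.63, 11.18, 9.19 and 10.98 in Control_RA8M. Only the lowest smoke array and the highest room air array overlapped (2.98 ± 0.66, adjusted p 0.298, exact permutation p 0.0159). Ccl3, a ligand of Ccr1, had 8.29, 8.42, 6.07, 8.92 and 8.31 in Control_CS8M, against 5.03, 4.31, 3.67, 9.02 and 4.64 in Control_RA8M (2.67 ± 0.96, adjusted p 1.0, exact permutation p 0.0476). Ccr9 had 6.33, 6.35, 8.61, 8.62 and 10.57 in Control_CS8M, against 5.57, 5.91, 5.03, 6.24 and 8.95 in Control_RA8M (1.75 ± 0.90, adjusted p 1.0, exact permutation p 0.103).

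Whether smoke acted differently in the 2 compartments or at the 2 times was tested as a difference of differences. No member passed for septa against vessels, in wild type at 3 months or in controls at 8 months, where 0% of all genes passed. At an unadjusted p under 0.05 the wild-type test gave 6 of 48 members, against 4.09% of all genes, and Cxcr5 had the smallest p, with -2.68 and an adjusted p of 1.0. The test in controls gave 3 of 48 members, against 3.43% of all genes. For 8 against 3 months no member passed in either compartment, with smallest adjusted p values of 0.561 in septa and 0.632 in vessels, where 0.0046% and 0% of all genes passed. At an unadjusted p under 0.05 this gave 6 of 46 members in septa, against 7.53% of all genes, and 4 of 48 in vessels, against 6.85% of all genes. The changes of Ccl6 and Cxcr5 were thus not shown to belong to 1 compartment or 1 duration.

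**Figure D5:**
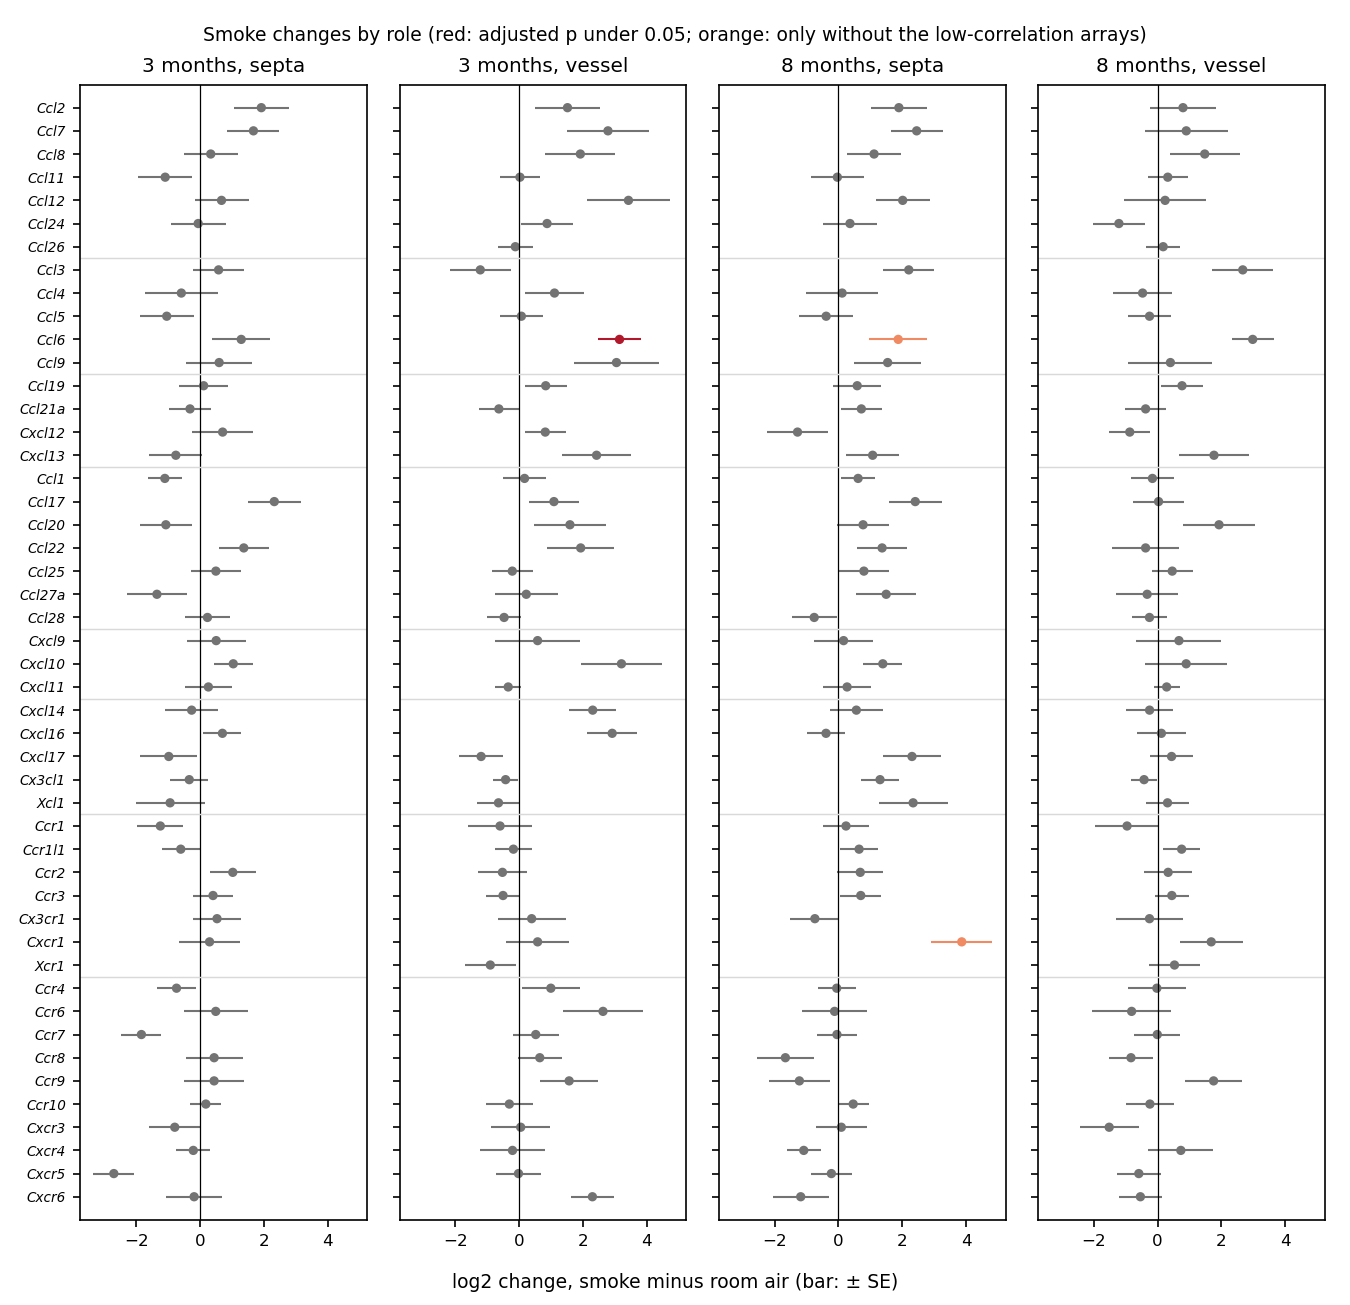
Smoke minus room air in log2 units, with standard errors, for the members in 4 comparisons (wild type at 3 months and controls at 8 months, each in septa and in vessels), where red points have an adjusted p under 0.05 and orange points only without the low-correlation arrays. The 1 red point is Ccl6 in vessels at 3.15, and the orange points are Ccl6 and Cxcr1 in septa at 8 months, at 1.87 and 3.87.

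Fgf10 knock-down in room air gave no member that passed the limma test. In septa 0% of all genes passed and 0 of 46 members had an unadjusted p under 0.05, against 2.28% of all genes. The smallest p belonged to Cxcl10, an interferon-inducible T cell attractant, with 4.60, 5.23, 5.49 and 5.08 in FGF10_RA, against 4.08, 3.91, 4.24, 3.74 and 4.28 in WT_RA. The groups did not overlap but all but 1 of these values lay below the dim level (1.05 ± 0.65, adjusted p 1.0, exact permutation p 0.0159), and the mean of all probes gave -0.12. Ccl2 had 6.98, 5.81, 6.21 and 5.93 in FGF10_RA, against 7.03, 5.43, 6.14, 8.54 and 10.39 in WT_RA, and the groups overlapped (-1.27, adjusted p 1.0). Cxcr5 differed by -0.98 (adjusted p 1.0). In vessels 9 of 48 members had an unadjusted p under 0.05, against 14.8% of all genes, 8 of them positive, while 0.32% of all genes passed the adjusted test. Cxcl13 had 8.63, 9.59, 6.37 and 10.32 in FGF10_RA, against 5.79, 5.09, 4.84, 4.04 and 5.78 in WT_RA. Its groups did not overlap (3.62 ± 1.16, adjusted p 0.151, exact permutation p 0.0159). Ccl6 had 12.84, 11.64, 12.46 and 13.34 in FGF10_RA vessels, against the WT_RA values given above (1.96 ± 0.70, adjusted p 0.200), and Cxcr6 had 10.32, 9.46, 9.81 and 9.78 (1.93 ± 0.73, adjusted p 0.222). These values and those of wild-type smoke share the 5 WT_RA vessel arrays. The macrophage receptor gene Mrc1 also rose here, by 3.54 (adjusted p 0.0364).

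Knock-down under smoke gave values in septa that depended on the low-correlation arrays. Against WT_CS, 0 of 46 members passed with all arrays, where 2.89% of all genes passed, and 11 had an unadjusted p under 0.05, against 28.6% of all genes. Without the 2 septa arrays 1 member had an unadjusted p under 0.05, against 4.76% of all genes, and 0% of all genes passed the adjusted test. Cxcl12 shows this, with 5.87, 14.93, 13.85, 13.67 and 9.11 in FGF10_CS, against 14.72, 14.26, 15.01, 13.59 and 14.19 in WT_CS. Its 2 low values are the 2 low-correlation arrays, and the difference was -2.87 with them (adjusted p 0.0617) and -0.20 without. Ccl25 had 3.99, 10.18, 9.43, 9.88 and 10.44 in FGF10_CS, against 10.62, 11.20, 10.73, 12.16 and 10.02 in WT_CS (-2.16, adjusted p 0.0754, or -1.12 without them). Ccl9, a macrophage ligand of Ccr1, had 3.98, 11.00, 13.89, 12.44 and 6.47 in FGF10_CS, against 10.46, 12.37, 13.11, 12.16 and 12.56 in WT_CS (-2.58, adjusted p 0.107, or 0.31 without them). Leaving out FGF10_CS septa replicate 2, 3 or 4 alone, which leaves both low-correlation arrays in, gave 9, 6 and 7 called members. The share of all genes called in those fits is not given here, so these counts are no result about the members.

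Cxcr5 in septa did not depend on those 2 arrays for its size. It had 4.88, 5.06, 4.76, 4.49 and 4.15 in FGF10_CS, against 6.58, 8.19, 7.52 and 6.11 in FGF10_RA, without overlap. The difference was -2.43 ± 0.68 (adjusted p 0.0648, exact permutation p 0.0159) and -2.33 ± 0.74 without the low-correlation arrays (adjusted p 0.827). All 5 values in smoke lay below the dim level. In this comparison 0 of 46 members passed and 12 had an unadjusted p under 0.05, against 28.2% of all genes, with 0% of all genes past the adjusted threshold. Without FGF10_CS replicate 2, 3 or 4 alone, 7, 4 and 7 members passed, again without the share of all genes at hand. Cxcl12, with 14.43, 14.57, 14.34 and 14.67 in FGF10_RA, differed by -3.02 (adjusted p 0.0751), or -0.35 without the low-correlation arrays. Ccr3, the eotaxin receptor gene, had 6.54, 4.09, 6.03, 4.29 and 9.87 in FGF10_CS, against 3.93, 4.15, 4.28 and 4.21 in FGF10_RA (2.02, adjusted p 0.0769, or 0.66 without them).

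In vessels knock-down under smoke against WT_CS gave 0 of 48 members, although 5.37% of all genes passed, and 6 members had an unadjusted p under 0.05, against 20.6% of all genes. Ccl26 had 6.41, 4.50, 8.57, 4.90 and 7.86 in FGF10_CS, against 4.49, 4.56, 4.55, 5.03 and 4.76 in WT_CS. Of the 5 knock-down arrays, 3 lay above the dim level and no wild-type array did (1.77 ± 0.54, adjusted p 0.0501). It passed without FGF10_CS vessel replicate 2 or 4 (adjusted p as low as 0.0164) and had an adjusted p of 0.113 without the low-correlation array. The knock-down arrays above the dim level, replicates 1, 3 and 5, had median correlations of 0.755, 0.79 and 0.456. Replicates 2 and 4, which lay below it, had 0.841 and 0.869. Against FGF10_RA, with 4.62, 3.92, 4.35 and 4.30, Ccl26 differed by 2.15 ± 0.57 (adjusted p 0.118), where 0.182% of all genes passed, 0 of 48 members passed and 5 had an unadjusted p under 0.05, against 9.66% of all genes. Ccl26 passed there too without FGF10_CS vessel replicate 2 or 4, with an adjusted p as low as 0.0190. Ccl2 had 9.48, 7.0, 7.18, 11.13 and 8.07 in FGF10_CS vessels, against 12.52, 11.00, 11.81, 9.71 and 11.33 in WT_CS vessels (-2.70 ± 1.03, adjusted p 0.119, exact permutation p 0.0238). Cxcl17, a mucosal chemokine, had 4.77, 5.69, 7.48, 4.74 and 7.18 in FGF10_CS, against 4.24, 5.42, 3.72, 4.22 and 3.99 in WT_CS (1.65 ± 0.68, adjusted p 0.150). Cxcr5 had 10.25, 5.09, 6.29, 4.69 and 4.67 in FGF10_CS vessels, against 4.35, 4.16, 4.17 and 4.50 in FGF10_RA vessels, so that 3 of the 5 smoke arrays and all room air arrays lay below the dim level (1.90 ± 0.74, adjusted p 0.387, exact permutation p 0.0159). The groups of Cxcr5 did not overlap. Ccl1, a ligand of Ccr8, had 4.47, 4.11, 9.82, 5.31 and 8.72 in FGF10_CS vessels, against 4.88, 3.93, 5.14 and 4.69 in FGF10_RA vessels (1.83 ± 0.71, adjusted p 0.387, exact permutation p 0.317), and its groups overlapped.

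The interaction of smoke and knock-down, the smoke difference in knock-down minus that in wild type, passed for no member. In septa 5 of 46 had an unadjusted p under 0.05, against 18.6% of all genes, and 0% of all genes passed. The smallest p belonged to Cxcl12 (-3.73 ± 1.38, adjusted p 0.230), whose interaction was -1.06 without the low-correlation arrays and passed only without FGF10_CS replicate 2 (adjusted p 0.0486). Ccl11 (2.86, adjusted p 0.239) and Ccr9 (-3.08, adjusted p 0.245) followed, at 1.45 and -2.51 without those arrays. In vessels 4 of 48 had an unadjusted p under 0.05, against 15.8% of all genes, and 0.0222% of all genes passed. Cxcl16 (-3.28 ± 1.14, adjusted p 0.173), Ccl26 (2.27 ± 0.79, adjusted p 0.174) and Ccl9 (-4.07 ± 1.92, adjusted p 0.298) had the smallest p. The median interaction of the members in vessels was -0.82, against -0.22 for all genes.

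Overexpression after 8 months of smoke was compared with both controls. Against Control_CS8M, 0 members passed in limma in either compartment and 0% of all genes did. In septa 3 of 46 had an unadjusted p under 0.05, against 2.28% of all genes, and all 3 had negative differences. Cxcr5 had 5.23, 7.09, 4.31, 5.98 and 5.37 in Overexp_CS8M, against 9.13, 8.35, 7.31, 7.25 and 5.19 in Control_CS8M (-1.85 ± 0.64, adjusted p 1.0, exact permutation p 0.0635). Ccr6, the Ccl20 receptor gene, had 4.78, 6.08, 4.53, 8.48 and 7.10 in Overexp_CS8M, against 9.35, 7.91, 8.54, 8.69 and 6.96 in Control_CS8M (-2.10 ± 1.01, adjusted p 1.0). The value of Xcl1, a lymphocyte-derived ligand of Xcr1, was decided by 1 array. It had 5.58, 5.17, 4.03, 4.98 and 3.76 in Overexp_CS8M, against 6.33, 6.27, 5.24, 15.32 and 5.48 in Control_CS8M, and its difference of -3.02 was -1.12 without the array at 15.32. That array was replicate 4, with a median correlation of 0.725, the lowest in septa apart from the low-correlation arrays.

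In vessels 2 of 48 members had an unadjusted p under 0.05 against Control_CS8M, with 2.56% of all genes. Cx3cl1 had 10.72, 10.32, 11.22, 11.45 and 10.56 in Overexp_CS8M, against 9.18, 10.91, 9.35, 9.42 and 9.31 in Control_CS8M (1.22 ± 0.40, adjusted p 1.0, exact permutation p 0.0317). Cxcl17 had 6.74, 7.37, 6.56, 7.92 and 7.31 in Overexp_CS8M, against 6.64, 4.03, 6.14, 4.47 and 5.10 in Control_CS8M (1.90 ± 0.68, adjusted p 1.0, exact permutation p 0.0159). Cxcl16 had 11.44, 9.79, 11.87, 7.94 and 10.89 in Overexp_CS8M vessels, against 12.13, 11.65, 11.53, 12.17 and 11.59 in Control_CS8M vessels, and the groups overlapped (-1.43, adjusted p 1.0). Against Control_RA8M, Cxcl17 had 5.61, 5.16, 5.09, 4.47 and 3.86 in the room air vessels, all below every overexpression array (2.34 ± 0.68, adjusted p 0.499, exact permutation p 0.00794).

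Against Control_RA8M the overexpression group, which also had smoke, was set against the same room air arrays as the smoke controls. In septa Ccl6 had 14.77, 13.42, 14.20, 15.01 and 14.75 in Overexp_CS8M (1.81, adjusted p 1.0 with all arrays and 0.0338 without the low-correlation arrays, where 0.0965% of all genes passed), Ccl17 had 6.06, 8.87, 9.02, 9.21 and 8.18 (2.75, adjusted p 0.804) and Cxcr1 had 6.92, 5.97, 7.34, 7.12 and 9.54 (3.10, adjusted p 0.979). In these septa alveolar macrophage genes had array means of 9.08 to 10.8 in Overexp_CS8M and 7.61 to 9.68 in Control_RA8M, with 8 of 10 positive. Of these Chil3 differed by 3.97, with an adjusted p of 0.298 with all arrays and 0.00264 without the low-correlation arrays, and their part in the Ccl6 value was not tested. Cxcr5 had 7.12, 8.60, 7.57, 6.69 and 8.34 in Control_RA8M septa, and the overexpression arrays differed from these by -2.07 (adjusted p 0.978). None of the 46 members passed with all arrays, where 0.0046% of all genes did, and 9 had an unadjusted p under 0.05, against 2.38% of all genes. In vessels 0 of 48 passed, where 0.04% of all genes did, and 4 had an unadjusted p under 0.05, against 4.4% of all genes. Ccl6 had 13.38, 13.01, 14.52, 14.50 and 14.47 in Overexp_CS8M vessels, above every Control_RA8M array (2.88 ± 0.66, adjusted p 0.176, exact permutation p 0.00794). Ccl3 had 8.36, 9.74, 9.44, 9.16 and 8.31, above 4 of the 5 room air arrays (3.67 ± 0.96, adjusted p 0.304, exact permutation p 0.0238).

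Other genes of the chemokine system, 28 atypical receptors, platelet chemokines and signalling genes, were read beside the members. Between compartments 8 were higher in septa, among them the decoy and scavenging receptors Ackr2 (1.99), Ackr3 (1.17) and Ackr4 (2.39), the platelet chemokine gene Ppbp (2.55) and Dpp4 (1.08), a peptidase that trims chemokines. Lower in septa were 4 genes, namely Ackr1 (-1.03), the chemokine-binding receptor of venular endothelium, the platelet factor gene Pf4 (-1.57), Plcb3 (-1.14) and Rgs1 (-0.90), a regulator of chemokine receptor signalling. Of 19 upstream cytokines and transcription factors, 3 were higher in septa, Il1a (1.56), Il1b (1.39) and Csf1 (1.23), and 4 were lower, Nfkb2 (-1.73), Nfkbia (-1.07), Relb (-1.03) and Il13 (-0.87). Beside these counts, 11% of all genes were higher and 8.85% lower in septa, so they are no result about either list. In wild-type smoke at 3 months and in the controls at 8 months, none of either list passed in either compartment with all arrays. Csf1, the macrophage growth factor gene, differed by 3.90 in WT_CS vessels against WT_RA vessels (adjusted p 0.0674) and passed without the low-correlation arrays (adjusted p 0.0201). Without smoke, Csf1 differed as much in FGF10_RA vessels against the same WT_RA arrays (4.00, adjusted p 0.0589, or 0.0223 without the low-correlation arrays).

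The members most alike in pattern to those named in wild-type smoke were found by Pearson r over the 14 group means, which is a description, since the means share arrays with the results above. Ccl17 was most like Ccl19 (0.91), Ccl8 (0.90) and Ccl21a (0.86), all of them lower in septa. Ccl6 was most like Cxcr1 (0.62), Ccl9 (0.62) and Ccl3 (0.57), Ccr7 was most like Cxcr5 (0.86), and Cxcr5 was next most like Ccl5 (0.84). Cxcl16 was most like Ccl22 (0.59), and Cxcr6 was most like Ccl8 (0.65).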

How the data were processed

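Per the labels' protocols, laser-microdissected septa and vessels gave RNA that was purified with a Qiagen micro kit, amplified with a NuGEN kit and labelled with Cy3. What the authors deposited are log2 intensities of 62976 features on 68 arrays, between 3.27 and 15.98. Their percentiles differed between arrays by at most 0.00264, so they were already quantile normalised and each array centred on its median replaced quantile normalisation as an alternative. The submitters' processing notes name limma without a version, and no source at hand gives the background correction. Precision is limited by the number of arrays, with 4 or 5 in a group.

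Groups came from the sample titles. WT_CS septa replicate 4 carries a knock-down entry against its title, which was tried as an alternative. Gene names came from GEO's platform annotation, updated through a RefSeq table (GRCm38.p6), giving 43941 features with 1 gene name, of which 33708 were matched by accession. Each gene was its brightest probe by mean over the 68 arrays and was tested if 4 or more arrays had it above their percentile 40, without genes that had any of 44 missing values.

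With limma 3.58.1 in R 4.3.3, a model of 7 group means was fitted per compartment (21752 genes in septa, 22517 in vessels) and one of 14 group means for both (24150 genes), and Benjamini-Hochberg adjusted p values under 0.05 counted as called. The fit was tested on simulated data for WT_CS minus WT_RA. An added log2 change of 1 was called in 2% of changed genes in septa and 4% in vessels. For a change of 2 this was 16% and 26%, for 3 it was 52% and 46%, and for 4 it was 84% and 82%. A member that did not pass is therefore not shown to be unchanged. Single members were also compared by exact two-sided permutation tests in SciPy 1.17.1 under Python 3.11.15, 44 in all, whose smallest p values of 0.00794 and 0.0159 (5 against 5 and 4 against 5 arrays) became 0.0318 and 0.0368 after adjustment over the 44. Members given array by array are those past the threshold, or otherwise the 3 with the smallest p in a comparison. As this choice used the same arrays, their permutation p values are no independent support. The members, gene lists and tests were chosen with earlier results of these data known. Alternatives were the filter, the probes, the scaling, the samples in the fit, the replicate block, Xist over 9.5 as a covariate, the 3 low-correlation arrays and each array left out.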

Additional observations from a re-analysis of the deposited data

Results flagged for a closer look

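In groups of 4 or 5 arrays, 6 of 75 combinations of a named member and a group had 1 array that stood apart from the rest by Dixon's criterion, and chance gives about 1 in 20. Ccl25 had 3.99 on 1 FGF10_CS septa array, a low-correlation array, with the next value at 9.43. Ccl3 had 6.07 on 1 Control_CS8M vessel array, with the next at 8.29, and 9.02 on 1 Control_RA8M vessel array, with the next at 5.03. Cx3cl1 had 10.91 on 1 Control_CS8M vessel array, with the next at 9.42. Cxcr1 had 5.06 on 1 Control_RA8M septa array, with the next at 4.22, both below the dim level. Xcl1 had 15.32 on 1 Control_CS8M septa array, with the next at 6.33.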

How the results depend on the processing

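Centring each array could hardly move a value, since percentiles differed between arrays by at most 0.00264. That all 72 results kept their side of the threshold and their sign is therefore no support. The conflicting label changed none of 12. The count for wild-type smoke in vessels, 1 (Ccl6), became 0 with the mean of all probes (adjusted p 0.0544), with only the compared groups (0.261) and with the replicate block (0.0649), and 2 with the Xist covariate. The block gave 23 members for septa minus vessel and changed no other call. Same-numbered arrays of different conditions correlated over 0.1 in 21 of 99 pairs in septa and 10 of 99 in vessels. Septa and vessel arrays of the same group and number did so in 6 of 34 pairs. Of the 34 septa arrays, 10 were most like the vessel array of their own number within the group. These values cannot tell whether septa and vessel arrays share animals. With the Xist covariate 7 members passed for FGF10_CS minus WT_CS and 6 for FGF10_CS minus FGF10_RA in septa, and 1 for FGF10_CS minus WT_CS and 1 for the interaction in vessels. FGF10_CS minus WT_CS in vessels also gave 1 with no filter and 1 with the mean of all probes. Without the low-correlation arrays 2 members passed for 8 months of smoke and 1 for Overexp_CS8M minus Control_RA8M in septa, and Ccl9 turned to 0.31 in FGF10_CS minus WT_CS. The mean of all probes turned Cxcl10 to -0.12 in FGF10_RA minus WT_RA septa. With only the WT_RA arrays, septa minus vessel gave 2 members, and Ccl22 (0.027), Cxcl13 (0.55) and Cxcr6 (0.92) changed sign. The cause of these shifts was not tested. Except without the low-correlation arrays, the share of all genes called in these alternative fits, or with 1 array left out, is not given here. Those counts are therefore no result about the members against other genes.

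Leaving out 1 array gave 0 to 9 members for FGF10_CS minus WT_CS and 0 to 7 for FGF10_CS minus FGF10_RA in septa, 0 to 1 for the interaction and for 8 months of smoke in septa, 0 to 3 for wild-type smoke in vessels, 0 to 1 for both FGF10_CS comparisons in vessels and 21 to 25 for septa minus vessel. Of all single-array fits, 1959 results stayed on their side, 26 moved past the threshold and 53 fell short of it. Most of these results concern septa minus vessel, with 68 fits per member. All 53 that fell short belong to Ccl6. Its call was kept in 23 of 68 fits for septa minus vessel and in 2 of 10 for wild-type smoke in vessels. Without spot flags, the distance of members near percentile 40 from background is unknown.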
